A study of Mus musculus with 24 samples.

Results

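The Id family of the mouse, Id1, Id2, Id3 and Id4, was followed in cells sorted from the brains of mouse embryos in which Cre under control of Pdgfrb acts on a floxed gene for the TGF-beta receptor ALK5. The members were taken by gene symbol from the 3 deposited tables of mutant against control. All 4 were listed in each table with an adjusted p, and they are 4 of the 25471 gene symbols that the tables list between them. Each table gives 1 mean per group and no value per library, so the spread between samples enters below only through the authors' p-values.

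Id proteins are helix-loop-helix proteins without a DNA-binding basic region. They bind the E proteins, the widely expressed basic helix-loop-helix factors, and hold them away from DNA, which delays differentiation and favours cell division in many progenitors. BMP ligands acting through type I receptors such as ALK1, ALK2, ALK3 and ALK6 phosphorylate SMAD1, SMAD5 and SMAD9, and Id1, Id2 and Id3 are classic direct targets of these SMADs. ALK5 is the product of Tgfbr1 and mainly phosphorylates SMAD2 and SMAD3, and in endothelial cells TGF-beta can also reach SMAD1/5 through ALK1. Id1 and Id3 are known for their part in the growth of brain blood vessels in the mouse embryo, and Id4 for its part in neural progenitors.

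Messenger RNA was sequenced from 24 samples of sorted cells. Pericytes came at E11.5 from 4 mutant and 4 control samples and at E13.5 from 4 mutant and 4 control samples, and endothelial cells at E13.5 came from 3 mutant and 5 control samples. Mutants had the genotype Pdgfrb-Cre, Alk5(flox/flox), Zs/+ and are labelled GMH-IVH, and controls had the genotype Pdgfrb-Cre, Alk5(flox/+), Zs/+ and are labelled normal. Both groups therefore carried Cre, the ZsGreen reporter and at least 1 floxed Alk5 allele. Cre was driven by Pdgfrb, a gene of pericytes and of other mural and mesenchymal cells, so the endothelial cells of the mutants were not the cells that this driver targets, and the labels give the sorted pericytes the cell type mesenchymal cells. Sex, litter and the number of embryos behind a sample are not given in the sources used here, and the stated aim was to find the pericyte genes that depend on ALK5 while brain vessels form.

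Between 20523 and 23792 genes are listed per table, and an adjusted p is given for 19301 genes of E11.5 pericytes, 20084 of E13.5 pericytes and 18132 of endothelial cells. Read depth per sample is unknown, because only group means were used, which are taken to be normalized counts since their unit is not stated. Tgfbr1 itself had means of 6196 in mutants, against 4609 in controls among E11.5 pericytes, 5823 in mutants and 5700 in controls among E13.5 pericytes, and 2849 in mutants and 3066 in controls among endothelial cells per the authors' deposited tables. Its adjusted p values there were 0.399, 1.00 and 0.859, and a count over the whole gene cannot check the deletion of floxed exons. Among control pericytes the pericyte markers sat at a median percentile of level per kb of 75.3 at E11.5 and 79.8 at E13.5, the fibroblast and meningeal markers at 89.1 and 93.4, and the endothelial markers at 20.5 and 25.4. The pericyte marker Higd1b was listed in none of the tables. Fibroblast and meningeal markers thus stood above the pericyte markers in the sorted pericytes of both stages. In control endothelial cells the endothelial markers had a median percentile of 96.3 and the pericyte markers 22.9.

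The sequence below, read in frame from GENCODE vM21 transcripts, is the window of 30 codons with the most bases shared by all 4 genes, and it is shown because it is what the family has in common and what could confuse reads of its members. Capitals mark the bases that are identical in all 4 genes.
Id1: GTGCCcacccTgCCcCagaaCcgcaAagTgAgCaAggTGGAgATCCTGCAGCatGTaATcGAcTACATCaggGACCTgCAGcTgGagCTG
Id2: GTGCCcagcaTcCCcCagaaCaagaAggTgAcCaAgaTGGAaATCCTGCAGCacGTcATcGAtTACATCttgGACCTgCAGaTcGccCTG
Id3: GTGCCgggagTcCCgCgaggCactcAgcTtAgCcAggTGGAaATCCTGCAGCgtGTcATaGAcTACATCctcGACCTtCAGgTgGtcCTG
Id4: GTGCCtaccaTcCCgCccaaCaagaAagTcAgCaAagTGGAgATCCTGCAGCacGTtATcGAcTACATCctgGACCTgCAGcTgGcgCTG
Of its 90 bases, 54 (60.0%) are the same in all 4 genes. Id1 and Id4 match at 82.2% of the bases, Id2 and Id4 at 81.1% and Id1 and Id2 at 78.9%, while Id3 matches the others at 66.7% to 70.0%. Read in the direction of each transcript, no stretch of 50 bases is shared between different Id genes. In that direction Id1, Id3 and Id4 share none with any other annotated gene either, and Id2 shares 8 of its 2433 stretches (0.329%) with the gene Gm6175. The opposite strand was not compared, so genes that overlap an Id gene on the other strand do not enter this count. A read of that length and known strand could therefore be assigned to a single Id gene over nearly all of each transcript.

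In mm10, Id1 lies on chromosome 2 (152736251 to 152737410, plus strand), Id2 on chromosome 12 (25093799 to 25097140, minus strand), Id3 on chromosome 4 (136143497 to 136145755, plus strand) and Id4 on chromosome 13 (48261228 to 48266026, plus strand). All are protein-coding genes. Id4 overlaps 2 noncoding genes on the other strand, A330033J07Rik and Gm49291, and the other members overlap no annotated gene. Whether the counting used strand is not stated in the sources used here, so reads of Id4 and of these partners cannot be told apart. Gm49291 had means of 18.3 in mutant and 20.8 in control E13.5 pericytes per the authors' deposited table, far below Id4 in those cells. The tables for E11.5 pericytes and for endothelial cells list neither partner.

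The upstream sequence of Id4 is shown because Id4 is the member whose level differed, and capitals mark the letters GGCGCC, a GC-rich SMAD1/5 motif. It is the RefSeq window of 250 bases before the annotated start, on GRCm38.p6 at chr13:48260866-48261115, plus strand, which overlaps no GENCODE exon.
Id4 promoter: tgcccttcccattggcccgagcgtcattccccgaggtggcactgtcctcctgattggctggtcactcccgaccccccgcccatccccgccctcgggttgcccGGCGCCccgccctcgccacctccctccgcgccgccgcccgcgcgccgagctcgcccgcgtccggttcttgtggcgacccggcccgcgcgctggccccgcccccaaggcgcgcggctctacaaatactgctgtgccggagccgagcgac
GGCGCC, which reads the same on both strands, begins 148 bases before the start. The Id2 window, of which 161 of 250 bases lie in GENCODE exons, holds it 231 bases before the RefSeq start. The Id3 window, all of whose 250 bases lie in GENCODE exons, does not hold it, and the promoter table has no entry for Id1, so 3 of 4 members were matched. GTCTAGAC, a SMAD palindrome that also reads the same on both strands and does not overlap GGCGCC, was in none of the 3 windows. Of 32851 windows of the same length, 9.59% hold GGCGCC and 0.167% hold GTCTAGAC. The Id4 window is 75.6% G and C, a base composition in which GC-rich letters are common.

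Id1, Id2 and Id3 were among the abundant messages of every group, and Id4 was not. Per kb of exon, the 3 abundant members lay between the percentiles 93.5 and 98.7 of all genes in every group of the 3 tables. Id3 led the family in each group, with 50.7% of the summed Id level per kb in mutant E11.5 pericytes and 45.2% in control ones, 41.5% in mutant and 41.8% in control E13.5 pericytes, and 57.7% in mutant and 58.3% in control endothelial cells. Id2 came next in E11.5 pericytes and in endothelial cells, while Id1 and Id2 lay close together in E13.5 pericytes, with 27.1% for Id1 and 27.0% for Id2 in mutants, and 27.6% for Id1 and 26.1% for Id2 in controls. The files give no spread per library, so whether such close neighbours in the order differ was not tested.

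Id4 held a small share in every group. It made up 4.42% of the family's level per kb in mutant E13.5 pericytes and 4.48% in control ones. In E11.5 pericytes the share was 0.152% in mutants, against 0.396% in controls, and in endothelial cells it was 0.0632% in mutants, against 0.108% in controls. By percentile of level per kb, Id4 stood at 62.2 in mutant and 63.6 in control E13.5 pericytes, at 16.3 in mutant and 30.3 in control E11.5 pericytes, and at 4.68 in mutant and 7.70 in control endothelial cells. The tables were normalized separately, so these positions are set side by side without a test.

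**Figure D1:**
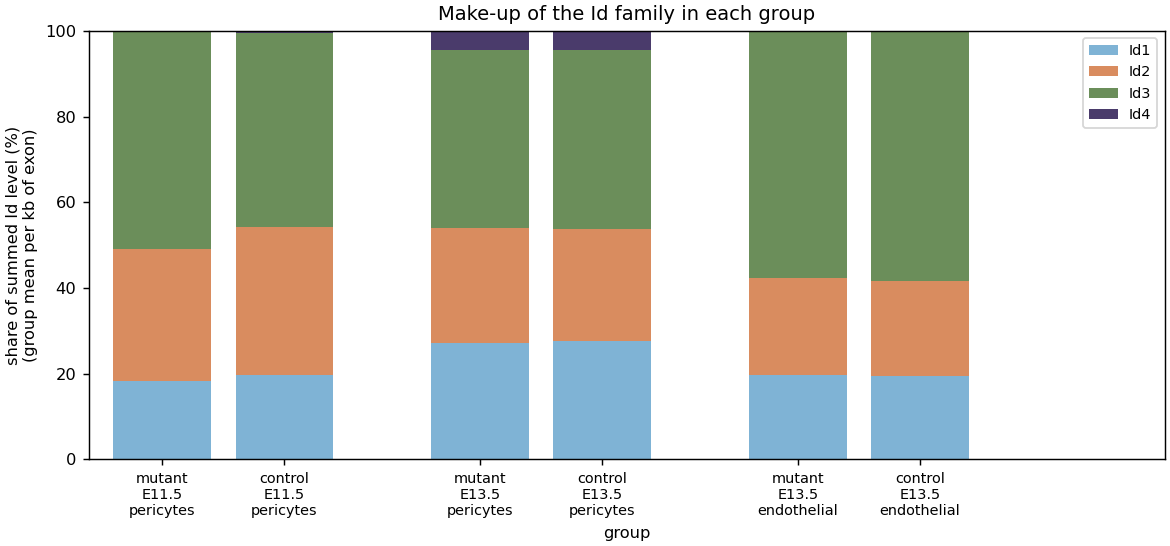
Share of each Id gene in the family's summed level (vertical axis, % of group means per kb of exon) for mutant and control in each of the 3 tables, with 1 stacked bar per group. Id3 is the largest layer in all 6 bars, and the Id4 layer is visible mainly in E13.5 pericytes, at 4.42% in mutants, against 4.48% in controls.

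In E11.5 pericytes Id4 fell in mutants, and none of the 3 abundant members passed the test. Id4 had a mean of 41.3 normalized reads in mutants, against 122 in controls per the authors' deposited table, which is 2.95-fold lower in mutants. On the log2 scale the difference was -1.56, with a standard error (SE) of 0.43 implied by the deposited ratio and p, and a 95% interval of -2.40 to -0.73. Its adjusted p from the authors' DESeq2 test was 0.0155, ranking Id4 at 297 of 19301 genes by p. Genes called lower at an adjusted p under 0.05 made up 2.70% of all genes tested in that table and genes called higher 0.642%, against 1 of 4 Id genes called lower and 0 called higher. Dividing each mean by the sum of its group's means left Id4 called at an adjusted p of 0.0100, and centring on the median log2 ratio of the genes of at least median level did so at 0.00879. But when the spread was rescaled so that the median test statistic matched a standard normal, the adjusted p of Id4 was 0.952. Since the libraries are pools of cells, fewer cells that express a gene and less RNA per cell cannot be told apart here.

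Id2 had a mean of 5288 in mutant E11.5 pericytes and 6756 in control ones per the authors' deposited table, a log2 ratio of -0.35 (SE 0.12, 95% interval -0.59 to -0.12). Its unadjusted p was 0.00326 and its adjusted p from DESeq2 0.0725, just short of the threshold. Scaling to the summed means put it past the threshold, at a log2 ratio of -0.40 with an adjusted p of 0.0309, and centring on the abundant genes did so too, at -0.41 with an adjusted p of 0.0233. Id1, with means of 1500 in mutants, against 1833 in controls, had a log2 ratio of -0.29 (SE 0.26, 95% interval -0.80 to 0.22) and an adjusted p of 0.577 per the authors' deposited DESeq2 table. Id3 had means of 6392 in mutants, against 6485 in controls, a log2 ratio of -0.02 (SE 0.14, 95% interval -0.29 to 0.25) and an adjusted p of 0.956 there. The interval of Id3 is narrow, and a drop as large as the Id4 point estimate lies outside the intervals of all 3 abundant members. The median log2 ratio of the 4 Id genes was -0.32, beside a median of -0.00 over all genes tested. Summed per kb, the family stood at 7042 in mutants, against 8004 in controls, a ratio of 0.880.

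At E13.5 no Id gene passed the test in pericytes. Id1 had means of 1291 in mutants, against 1371 in controls, and Id2 had 2705 in mutants and 2730 in controls, per the authors' deposited table. Id3 had 3053 in mutants and 3208 in controls, and Id4 had 699 in mutants and 740 in controls. The mutant mean was between 0.934% (Id2) and 5.86% (Id1) lower than the control mean. The log2 ratios were -0.09 for Id1 (95% interval -0.59 to 0.42), -0.01 for Id2 (-0.21 to 0.18), -0.07 for Id3 (-0.23 to 0.08) and -0.08 for Id4 (-0.31 to 0.15). Their unadjusted p values were 0.735, 0.892, 0.368 and 0.482, and all 4 had an adjusted p of 1.00 from the authors' DESeq2 test. For Id4 the interval excludes the 2.95-fold drop seen as the point estimate at E11.5. Among all genes tested there, 0.164% were called lower and 0.224% higher, so few genes of any kind were called. An unadjusted p under 0.05 was found for 815 genes, or 4.06% of those tested, and 0 Id genes. Called lower among the markers there were 1 of 11 for pericytes (Rgs5) and 1 of 8 for endothelial cells (Erg). Of 10 neural progenitor markers 0 were called. Means in mutants were higher for 7 and lower for 4 of the pericyte markers, with a median log2 ratio of 0.06. For the endothelial markers they were higher for 7 and lower for 1, with a median of 0.32. For the neural progenitor markers 5 were higher and 5 lower. Erythroid markers had higher means in mutants for 5 of 5 genes, with sums of 1072 in mutants and 266 in controls, and 0 of them passed. Genes that respond to cell dissociation had lower means in mutants for 16 of 18 genes, with a median log2 ratio of -0.36, and 0 of them passed. The part of these markers in the Id values was not tested.

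In E13.5 endothelial cells Id1, Id2 and Id3 had higher means in mutants and Id4 a lower one, and none of the 4 passed the test. Id1 had means of 2281 in mutants, against 1951 in controls, a log2 ratio of 0.23 (SE 0.35, 95% interval -0.45 to 0.90), per the authors' deposited table. Id2 had 5454 in mutants, against 4635 in controls, a log2 ratio of 0.23 (SE 0.13, 95% interval -0.02 to 0.49), and its unadjusted p of 0.0677 was the smallest of the family in this DESeq2 table. Id3 was the most abundant, at 10276 in mutants, against 8992 in controls, with a log2 ratio of 0.19 (SE 0.24). Id4 had means of 24.2 in mutants, against 35.7 in controls, a log2 ratio of -0.56 with a wide 95% interval of -1.63 to 0.51. The adjusted p values of Id1 to Id4 from the authors' DESeq2 test were 0.781, 0.294, 0.726 and 0.627.

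Calls among all genes of the endothelial table made up 2.19% lower and 5.11% higher, and 0 of 4 Id genes were among them. At an unadjusted p under 0.05 the table holds 3631 genes (20.0%), again with 0 Id genes. Erythroid markers moved with the groups: 8 of 9 were called higher, and their summed means were 1627568 in mutants, against 57536 in controls per the authors' deposited table. Summed over all genes, the means were 22993850 in mutants, against 21082886 in controls, and these sums include the erythroid markers. Scaling to the summed means shifts every log2 ratio of this table by -0.13, and Id1, Id2 and Id3 then stood at 0.10, 0.11 and 0.07. Of 10 myeloid markers, 3 were called higher, with summed means of 21002 in mutants, against 12087 in controls. Of 9 tested fibroblast and meningeal markers 1 was called higher, Slc6a13, and 0 lower. Of the endothelial markers 1 of 10 was called lower, the VEGF receptor gene Kdr, and of the pericyte markers 0 of 11, while scaling to the summed means gave 3 endothelial markers (Kdr, Tek and Flt1) and 1 pericyte marker (Foxf2). Cartilage and bone markers had summed means of 2375 in mutants and 10989 in controls, with a median log2 ratio of -1.20, and 0 of 8 passed. With the spread rescaled, no gene of any list was called in this table. The part of these markers in the Id values was not tested.

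**Figure D2:**
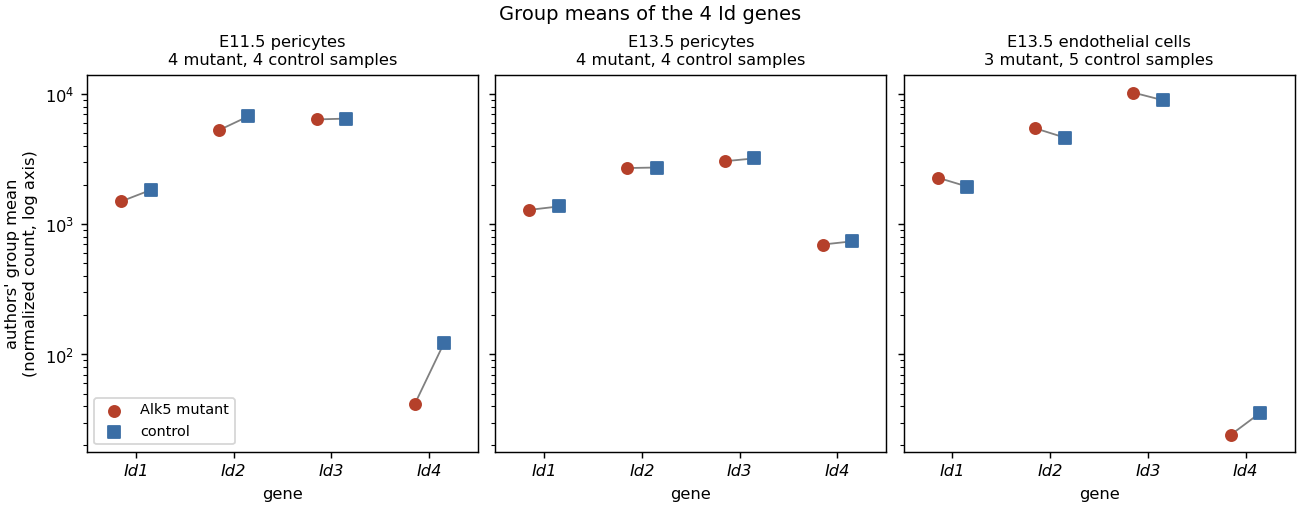
The authors' group means of the 4 Id genes (vertical axis, normalized count, log scale), with circles for mutants and squares for controls, in a panel for each table. Id4 has the widest gap, at 41.3 in mutant and 122 in control E11.5 pericytes, while both Id4 means lie near 700 in E13.5 pericytes (699 in mutants and 740 in controls).

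**Figure D3:**
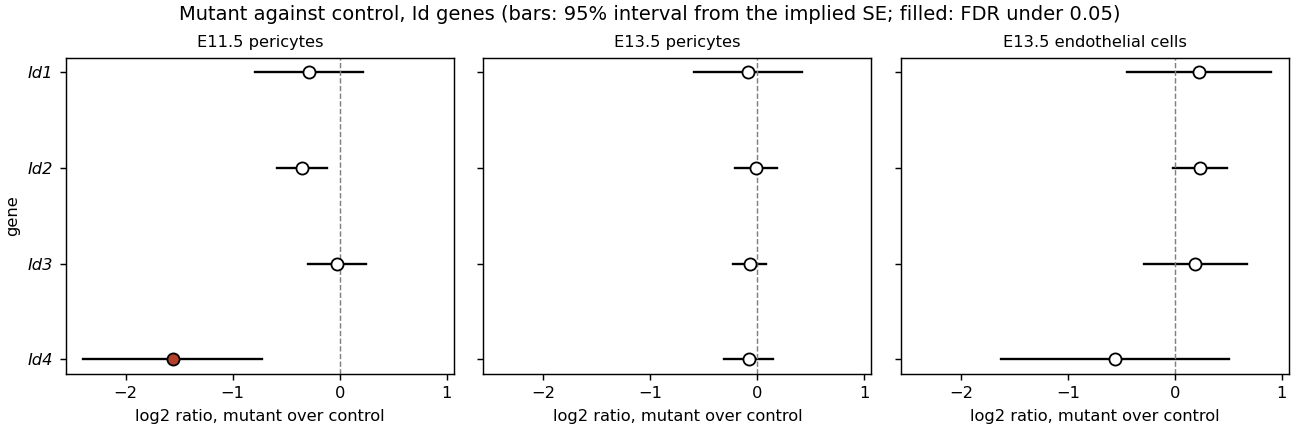
Log2 ratio of mutant over control for each Id gene (horizontal axis), with bars for the 95% interval from the implied SE and a filled point for an adjusted p under 0.05. Of the 12 points, only Id4 in E11.5 pericytes is filled, at -1.56.

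Whether the response of each Id gene differed between stages was tested with the difference of its log2 ratios, E13.5 minus E11.5. For Id4 the difference was 1.48 (SE 0.44, 95% interval 0.62 to 2.34), with an unadjusted p of 0.000774 and an adjusted p of 0.0516 in that z-test across genes of the authors' deposited DESeq2 values, just short of the threshold. With scaling to the summed means the adjusted p was 0.0287, with centring it was 0.0297, and with the spread rescaled it was 1.00. For Id2 the difference was 0.34 (95% interval 0.03 to 0.65), and its adjusted p was 0.307 by the same test on the DESeq2 values. Id1 differed by 0.20 and Id3 by -0.05, with adjusted p values of 0.853 and 0.925 from the authors' DESeq2 values. Over all 18267 genes in both pericyte tables, 1.43% passed this test.

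Between cell types at E13.5, pericytes minus endothelial cells, no Id gene passed. The differences of log2 ratios were -0.31 for Id1, -0.25 for Id2, -0.26 for Id3 and 0.48 for Id4, with adjusted p values of 0.811, 0.497, 0.705 and 0.769 in the same test on the authors' DESeq2 values. Of all 16920 genes tested in both, 3.94% passed. The SE of these differences was 0.43, 0.16, 0.26 and 0.56, so for Id1 and Id4 only large differences could have been seen. The comparisons share no samples.

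Upstream of the Id genes, ligands and receptors of the SMAD1/5 branch were looked at by list. In E11.5 pericytes 2 of 7 tested ligands were lower, beside 2.70% of all genes in that table. Bmp4, a ligand for BMP receptors, had means of 546 in mutants, against 911 in controls per the authors' deposited table (log2 ratio -0.74, adjusted p 0.0328 by DESeq2), and Gdf6, a related ligand known for joint and eye development, had 28.0 in mutants and 93.0 in controls (log2 ratio -1.73, adjusted p 0.0286). The median log2 ratio of the ligands was -0.80. Of 10 tested receptors and co-receptors, 2 were lower. Acvr1, which encodes the type I receptor ALK2, had 104 in mutants, against 245 in controls (log2 ratio -1.23, adjusted p 0.00679 by DESeq2 per the authors' deposited table), and Rgmb, a BMP co-receptor, had 686 in mutants and 1057 in controls (log2 ratio -0.62, adjusted p 0.0492). The receptors' median was -0.25.

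In E13.5 pericytes 0 of 8 ligands and 0 of 10 receptors passed, beside 0.164% of all genes tested called lower and 0.224% higher. Endothelial cells of the mutants had 1 of 10 receptors lower, Bmpr2, which encodes the type II BMP receptor, with means of 2823 in mutants, against 3455 in controls (log2 ratio -0.29, adjusted p 0.0447 by DESeq2 per the authors' deposited table), and 0 of 5 ligands changed. All 10 receptors had log2 ratios below 0 there, with a median of -0.36. Centring on the abundant genes left 0 of them called while scaling to the summed means left 4. Among all genes tested in endothelial cells 2.19% were called lower.

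Secreted antagonists, which bind BMP ligands outside the cell, held the largest number of calls among the pathway lists in E11.5 pericytes. Of 13 tested, 7 were lower and 0 higher, beside 2.70% lower and 0.642% higher over all genes, with a median log2 ratio of -0.92. Fst, which encodes the activin and BMP binder follistatin, had means of 43.2 in mutants, against 156 in controls per the authors' deposited table (log2 ratio -1.85, SE 0.24, adjusted p 1.53e-10 by DESeq2). Chrdl1, a chordin-like antagonist, had 111 in mutants, against 301 in controls (log2 ratio -1.44, adjusted p 5.32e-07 by DESeq2), and Nog, which encodes noggin, had 36.5 in mutants and 92.8 in controls (log2 ratio -1.35, adjusted p 0.00131). Chrd, Grem1, Bmper and Nbl1 were the other 4. With the spread rescaled, Fst was the only gene of the lists still called in this table.

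The 7 antagonists were picked by their E11.5 calls, and the stage difference reuses those E11.5 values, so passing it is not independent support. The differences of these genes were not run with the spread rescaled. The stage difference, E13.5 minus E11.5, passed for 5 of these 7 antagonists, beside 1.43% of all genes tested at both stages. It was 1.86 for Fst (SE 0.28, adjusted p 6.08e-07 by the test on the DESeq2 values), and Nog (1.22), Grem1 (2.39), Bmper (2.61) and Nbl1 (1.23) had adjusted p values of 0.0307, 0.0222, 0.0372 and 0.0199. It did not pass for Chrdl1 (1.12, adjusted p 0.321) or Chrd (0.76, adjusted p 0.209). In E13.5 pericytes 0 of 13 antagonists passed, beside 0.164% of all genes called lower and 0.224% higher. Their median there was -0.12, and Fst had means of 192 in mutants, against 191 in controls. In endothelial cells 0 of 9 passed.

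None of the SMADs that carry the signal passed in any table, apart from Smad5 in endothelial cells when scaled to the summed means. In E11.5 pericytes all 6 had lower means in mutants, with a median log2 ratio of -0.57. Smad1 had 395 in mutants, against 532 in controls, Smad5 2064 in mutants and 2282 in controls, and Smad9 51.4 in mutants and 81.8 in controls per the authors' deposited table, with adjusted p values of 0.362, 0.678 and 0.188 by DESeq2. Smad4, the shared partner of the receptor SMADs, had 570 in mutants, against 852 in controls (adjusted p 0.454 by DESeq2). The inhibitory SMADs, which are themselves SMAD1/5 targets, had 96.0 in mutants and 141 in controls for Smad6, and 203 in mutants and 317 in controls for Smad7, with adjusted p values of 0.357 and 0.291 by DESeq2.

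In E13.5 pericytes the 6 SMADs had log2 ratios between -0.17 (Smad7) and 0.07 (Smad6) per the authors' deposited table. In endothelial cells Smad5 had means of 1782 in mutants, against 2365 in controls (log2 ratio -0.41, adjusted p 0.0926 by DESeq2), and Smad6 had 128 in mutants and 81.2 in controls (log2 ratio 0.65, adjusted p 0.170). Smad1, Smad4 and Smad7 had log2 ratios of -0.14, -0.09 and -0.23 there, and Smad9 is not in that table.

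Of 15 other SMAD1/5 targets tested in E11.5 pericytes, 3 were lower, namely Runx2, Dlx5 and Hey2, beside 2.70% of all genes in that table. Runx2, a master factor of bone formation, had means of 33.6 in mutants, against 466 in controls, and Dlx5, a homeobox factor of skeletal and craniofacial development, 20.8 in mutants and 131 in controls per the authors' deposited table, with log2 ratios of -3.79 and -2.65 and adjusted p values of 0.000476 and 0.00159 by DESeq2. Hey2, a vascular Notch and BMP target, had 203 in mutants, against 298 in controls (log2 ratio -0.55, adjusted p 0.0125 by DESeq2). In the opposite direction without passing, Msx1, a homeobox target of BMPs, had 13967 in mutants, against 10635 in controls, and the decoy receptor gene Bambi 1668 in mutants and 1341 in controls (adjusted p 0.312 and 0.303 by DESeq2 per the authors' deposited table). These last names were chosen after their values were seen. In E13.5 pericytes 0 of 16 and in endothelial cells 0 of 15 passed, with medians of 0.02 and 0.07. The endothelial median became -0.05 with scaling to the summed means. Over all genes tested in E13.5 pericytes, 0.164% were called lower and 0.224% higher.

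Of 14 SMAD2/3 targets tested in E11.5 pericytes, the branch that ALK5 mainly feeds, 2 were lower and 1 higher. Over all genes tested there, 2.70% were lower and 0.642% higher. Col1a2, a collagen I chain, had means of 10586 in mutants, against 17120 in controls, Postn, a matricellular protein, 745 in mutants and 1452 in controls, and Ccn2, a matricellular signalling protein, 1332 in mutants and 796 in controls per the authors' deposited table. Under both scaling alternatives Ccn2 was no longer called and Pmepa1 was called lower, which gave 3 lower and 0 higher. In E13.5 pericytes 2 of 15 were lower, beside 0.164% of all genes tested. They were the feedback genes Skil (2108 in mutants, against 3150 in controls) and Pmepa1 (1699 in mutants and 2156 in controls), with adjusted p values of 0.0360 and 0.0117 by DESeq2 per the authors' deposited table. Of all 15 targets there, 8 had log2 ratios below 0 and 7 above, with a median of -0.01. In the same cells the 4 Id genes had log2 ratios between -0.09 and -0.01, with a median of -0.08. Among endothelial cells 0 of 15 SMAD2/3 targets passed, beside 2.19% of all genes called lower and 5.11% higher. With scaling to the summed means 1 of them, Fn1, was called lower.

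**Figure D4:**
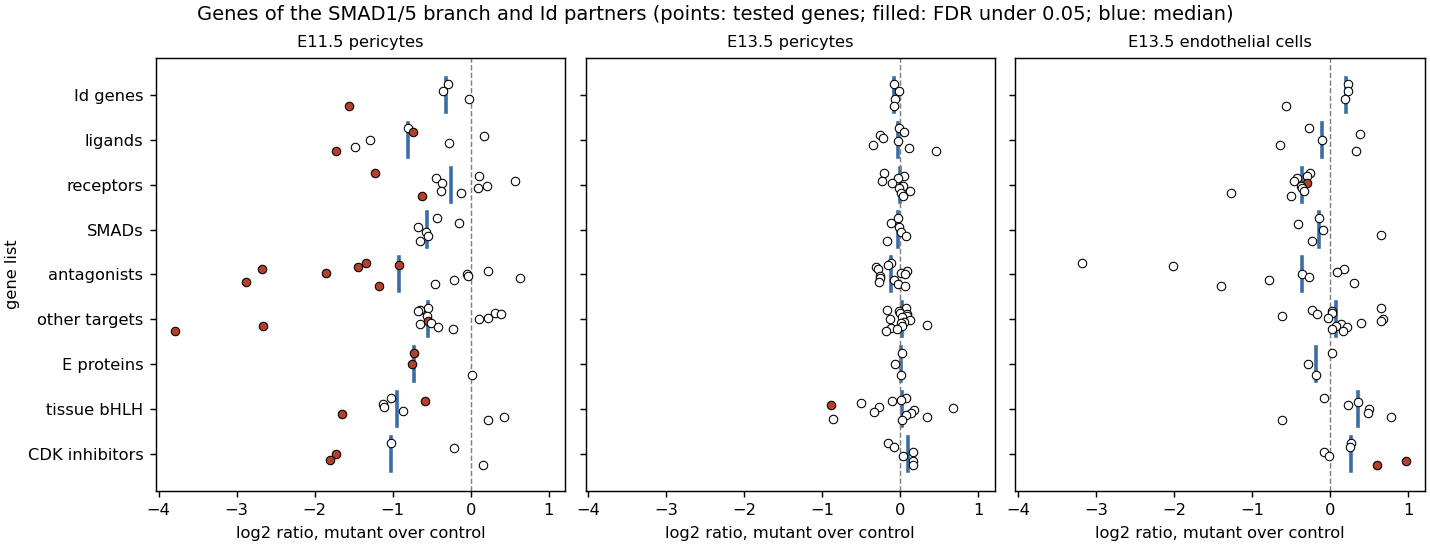
Log2 ratio of mutant over control (horizontal axis) for each tested gene of the Id family, the SMAD1/5 branch and the Id partners (rows), with 1 panel per table, filled points for an adjusted p under 0.05 and a vertical bar for the median of each list. In E11.5 pericytes the antagonists hold 7 filled points, while in E13.5 pericytes 1 point is filled, Scx among the tissue bHLH factors.

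E proteins, the partners that Id proteins bind, were called lower in mutants at E11.5 for 2 of 3 genes, beside 2.70% of all genes tested. With the spread rescaled neither was called. Tcf3, which encodes E2A, had means of 1619 in mutants, against 2676 in controls, and Tcf4, which encodes E2-2, 2299 in mutants and 3877 in controls per the authors' deposited table, with log2 ratios of -0.73 (SE 0.21) and -0.75 (SE 0.22) and adjusted p values of 0.0298 and 0.0303 by DESeq2. Tcf12, which encodes HEB, had 4708 in mutants, against 4668 in controls (log2 ratio 0.01, adjusted p 0.971 by DESeq2). At E13.5 the log2 ratios of Tcf3, Tcf4 and Tcf12 were 0.03, -0.07 and 0.01 in pericytes, and 0.02, -0.28 and -0.18 in endothelial cells, and none passed, although scaling to the summed means put Tcf4 and Tcf12 past the threshold as lower in endothelial cells. For Tcf3 the stage difference was 0.75 with an adjusted p of 0.0542, and for Tcf4 it was 0.68 with an adjusted p of 0.109, by the test on the authors' DESeq2 values.

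Set against each other per kb, the summed Id level was 8.94 times the summed E protein level in mutant E11.5 pericytes and 7.24 times in control ones. The quotient was 2.39 in mutants, against 2.50 in controls among E13.5 pericytes, and 17.5 in mutants, against 13.6 in controls among E13.5 endothelial cells. These quotients depend on the exon-union lengths, and without division by length they are smaller in every group. Undivided, the E protein means sum to 8626 in mutant and 11221 in control E11.5 pericytes. In E13.5 pericytes they sum to 19024 in mutants and 19302 in controls, more than the 4 Id means together. The quotients are of group means, without a spread per library, and were not tested.

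Tissue-restricted basic helix-loop-helix factors, which pair with E proteins, had 2 of 8 called lower in E11.5 pericytes, beside 2.70% of all genes tested. Lyl1, a factor of blood and endothelial lineages, had means of 14.0 in mutants, against 43.9 in controls, and Twist2, a mesenchymal factor, 970 in mutants and 1457 in controls per the authors' deposited table (adjusted p 0.00732 and 0.0482 by DESeq2). In E13.5 pericytes 1 of 14 was lower, beside 0.164% of all genes tested. It was Scx, a factor of tendon and other connective tissue, at 243 in mutants, against 449 in controls (log2 ratio -0.89, adjusted p 2.70e-05 by DESeq2 per the authors' deposited table). In endothelial cells 0 of 7 passed.

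Among cyclin-dependent kinase inhibitors, several of which E proteins are known to activate, 2 of 5 were lower in E11.5 pericytes, beside 2.70% of all genes. Cdkn1c, which encodes p57, had means of 2067 in mutants, against 6809 in controls, and Cdkn2c, which encodes p18, 8.74 in mutants and 30.5 in controls per the authors' deposited table, with log2 ratios of -1.72 and -1.80 and adjusted p values of 0.00022 and 0.0108 by DESeq2. The stage difference passed for both, at 1.89 for Cdkn1c and 1.97 for Cdkn2c (adjusted p 0.000171 and 0.0117 by the test on the DESeq2 values). Both were picked by their E11.5 calls, and the difference reuses those E11.5 values. Over all genes tested at both stages, 1.43% passed. In E13.5 pericytes 0 of 6 passed, beside 0.164% of all genes called lower and 0.224% higher. In endothelial cells 2 of 6 were higher, beside 5.11% of all genes tested. Cdkn2c had 70.9 in mutants, against 36.1 in controls, and Cdkn2d, which encodes p19, had 2500 in mutants and 1652 in controls (adjusted p 0.0484 and 0.00124 by DESeq2 per the authors' deposited table). With scaling to the summed means Cdkn2c was no longer called there, and with the spread rescaled neither gene was.

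Markers of cell types moved in the table in which Id4 was lower. Over all genes tested in that table, 2.70% were called lower and 0.642% higher. In E11.5 pericytes 5 of 11 tested pericyte markers were called lower, with summed means of 12435 in mutants, against 15820 in controls per the authors' deposited table, among them the channel genes Kcnj8 (381 in mutants and 662 in controls) and Abcc9 (320 in mutants and 639 in controls) and the proteoglycan gene Cspg4 (309 in mutants and 611 in controls). Of 10 fibroblast and meningeal markers 4 were lower and 1 higher, with sums of 48792 in mutants, against 70859 in controls. Of 8 tested neural progenitor markers 1 was lower, Emx2, a forebrain homeobox factor, with 15.4 in mutants, against 52.1 in controls. The sums of the neural progenitor list were 4318 in mutants, against 4831 in controls, and its members Sox1 and Sox3 were not listed.

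Endothelial markers had sums of 459 in mutants, against 995 in controls in that table, with 1 of 7 lower, beside 2.70% of all genes. Myeloid markers had 1091 in mutants and 2051 in controls, with 1 of 10 lower, and erythroid markers 60.9 in mutants and 132 in controls, with 0 of 5 called. Schwann and neural crest markers had 172 in mutants and 267 in controls, with 1 of 3 lower and Sox10 and Foxd3 not listed. Cartilage and bone markers had 19293 in mutants and 24135 in controls, with 2 of 7 lower, Runx2 and Dlx5, which are also in the SMAD1/5 target list. Neuron markers had sums of 4312 in mutants, against 4226 in controls, with 0 of 8 called. Genes that respond to cell dissociation had sums of 81201 in mutants and 97233 in controls and a median log2 ratio of -0.70, with lower means for 13 of 17 and 2 called lower, the Kruppel-like factors Klf2 and Klf4. The part of these markers in the Id4 result was not tested.

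The genes whose pattern across the 3 tables was nearest to each member were found by the Euclidean distance between the 3 log2 ratios. Candidates were 8727 genes of at least median level in each table, counted together with the Id genes, which were kept at any level. Y-linked genes and Xist were then left out as neighbours. For Id4 the nearest was Klf4, a Kruppel-like factor, at a distance of 0.23, with log2 ratios of -1.75 in pericytes at E11.5, -0.11 in pericytes at E13.5 and -0.43 in endothelial cells. Abca1, a cholesterol exporter, followed at 0.32, Nfib, a nuclear factor I gene, at 0.33, Apcdd1, a Wnt inhibitor, at 0.36 and Cavin1, a caveolar coat protein, at 0.47. For Id1 the nearest were Mob3c, Ube2r2, Sh2b1, Pld3 and Slc50a1, and for Id2 they were Mogs, Ube2r2, Pip4p1, Rgs2 and Psip1, with the nearest distances at 0.02 and 0.06.

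Id1 and Id2 lay close together, at 0.10 from each other, and each was within the nearest 31 genes of the other. For Id3 the nearest were Cnppd1, Mrpl51, Ubl3, Chchd5 and Atp6v0c, which like Id3 had small log2 ratios in all 3 tables. Id4 lay 1.45 or more from each of the other members. The distance rests on 3 values per gene and has no replicate error.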

How the data were processed

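Messenger RNA of 24 flow-sorted samples was read through 3 tables of the authors' own comparisons, 1 per cell type and stage. The submitters' processing notes name Bowtie2, Partek and DESeq2 without versions and the build mm10. Annotation, counting and filters are not given in the sources used here. Per the file headers, the deposited columns are a p-value and its step-up FDR, the mutant to control ratio, a fold change with a sign, and a least-squares mean for either group. These deposited means were read as a signal, taken to be normalized counts, since the authors' unit and scale are not stated. Levels per kb, percentiles and family shares rest on that reading, and the ratios do not. Depth is unknown, so no counting interval could be given. The deposited FDR, printed as the adjusted p, equals the Benjamini-Hochberg value over the genes that have one.

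Tests on libraries had been planned. As the tables hold group means, the authors' DESeq2 test was used instead. Log2 ratios were computed from the deposited ratio. The SE was obtained from the log2 ratio and the deposited two-sided p on the assumption of a Wald statistic. Differences between tables are z-tests on 2 log2 ratios with Benjamini-Hochberg adjustment over all genes tested in both. Levels per kb use exon-union lengths of GENCODE vM21. The labels do not tie samples to separate litters, so the p-values reflect no more than the variation among the samples, which may be technical.

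The members, the 19 lists of 195 distinct genes and the tests were chosen with earlier results of these data known. The text names the Id genes, Tgfbr1, the SMADs, the E proteins and the 5 genes nearest to each Id gene. It also names the called members of smallest p per list and table (at most 3). For the marker lists this rule was followed only in part, and many of their called genes are given only as counts. Msx1, Bambi, Higd1b, Gm49291, the called antagonists beyond 3 and marker genes beyond the rule were added with their values in view. The implied SE, the Benjamini-Hochberg adjustment and the difference test were checked on simulated data, drawn with the implied SE itself. The other steps were not checked in this way. The software was Python 3.11.15 with scipy 1.17.1, numpy 2.4.6 and pandas 2.3.3, and figures were drawn with matplotlib 3.10.9. Alternatives were scaling to the summed means, centring on genes of at least median level, no filter on low genes, an adjusted p under 0.1, and a spread rescaled to give the median absolute statistic of a standard normal.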

Additional observations from a re-analysis of the deposited data

How the results depend on the processing

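No paired analysis was possible because the tables hold only group means, and leaving out each replicate could not be run for the same reason. Of 48 alternative log2 ratios of Id genes, 44 kept their sign and their side of the threshold. Dropping the filter or rescaling the spread leaves a log2 ratio as it is, so its sign could not change there. Scaling and centring shift all genes of a table by the same amount. The only called member, Id4 in E11.5 pericytes, changed its side of the threshold with the spread rescaled. Id2 in E13.5 pericytes changed sign to 0.0053 with scaling to the summed means. The stage difference of Id3 changed sign to 0.012 with that scaling and to 0.0090 with centring. In E11.5 pericytes 1 Id gene was called, 2 with scaling to the summed means, 2 with centring, 2 at an adjusted p under 0.1 and 0 with the spread rescaled. The deposited, unscaled DESeq2 p was under 0.05 for 3421 genes of that table, or 17.7% of those tested, and for 2 of the 4 Id genes.

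Genes called among E11.5 pericytes numbered 646, against 5 with the spread rescaled and 1139 at an adjusted p under 0.1. Among E13.5 pericytes 78 were called, and 142 with the spread rescaled. Among endothelial cells 1323 were called, against 2199 with scaling to the summed means and 49 with the spread rescaled. The summed means of endothelial cells include the erythroid markers given above, and the cause of these shifts was not tested. Of the endothelial calls 70.0% were higher in mutants, and 28.8% with scaling to the summed means. In E13.5 pericytes the share was 57.7%, and 69.8% with that scaling. Depth per library is unknown, so whether Id4 in E11.5 pericytes and in endothelial cells rests on few reads could not be judged.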
